A study of Mus musculus with 5 samples.

Results

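The gene set described here comprises Scx (scleraxis), Mstn (myostatin), Postn (periostin), Tnc (tenascin C), Tnmd (tenomodulin), Mkx (mohawk) and Tgfbi (transforming growth factor beta induced), chosen by name, with earlier results of the same data in view, as regulators and matrix genes of fibrous tissue. Of these 7 genes, 5 matched a row by symbol among the 14697 transcripts of the expression table, and all 5 passed the filter on low values. Tnmd and Mkx were not analysed here. The values compared are those by which the genes came to notice, so they are given as a description and without a test.

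RNA was sequenced from the atrioventricular canal (AVC), the part of the heart between atria and ventricles where the cushions that become valves form, of C57BL/6 mouse embryos at embryonic day 12.5. The control, labelled WT, was Sox9fl/fl:+/+. The mutant, labelled Sox9 cKO, was Sox9fl/fl:Tie2-Cre/+. Both therefore carried floxed Sox9 alleles, and they also differed in the presence of Cre. Tie2-Cre acts in endothelium, in the cushion cells that descend from it and in blood lineages, and spares the myocardium that the dissected AVC also holds. The AVCs were pooled after a check of the Sox9 deletion, and 2 libraries per genotype were merged by the authors into 1 value each, in nFPKM, their further normalized fragments per kilobase of transcript scaled to sequencing depth. No spread between replicates can be given, and the read depth behind the values is unknown.

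Heart valves and tendons are built from related connective tissue. Scleraxis and mohawk are transcription factors of tendon progenitors, and scleraxis is also needed for the maturing matrix of the valve. Tenomodulin is a membrane glycoprotein of tendon cells. Myostatin is a secreted ligand of the TGF-beta superfamily, best known as the brake on skeletal muscle growth, that signals through activin receptors and SMAD2 and SMAD3. Periostin and TGFBI are secreted relatives that share fasciclin domains, bind integrins and collagen, and mark the fibrous valve mesenchyme. Tenascin C is a large adhesion-modulating glycoprotein of embryonic and healing connective tissue.

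The stretch of 250 bases upstream of the annotated start is printed for the genes with an entry in the RefSeq promoter table (build GRCm38.p6). In the mutant the gene of a SOX factor was deleted in part of the tissue, so the letters that SOX proteins prefer were looked for. Capitals mark the SOX-type words, which are AACAAT, then ACAATG, then ACAAAG, and also the TATA-box word TATAAA, on either strand. The word AACAAT can overlap the word ACAATG. Postn has 2 annotated starts and both are shown, while of the 2 overlapping starts of Tnc the outer one is shown. The windows lie at chr1:53061390-53061639 (+) for Mstn, chr3:54359017-54359266 (+) and chr3:54360857-54361106 (+) for Postn, chr13:56609336-56609585 (+) for Tgfbi and chr4:64047016-64047265 (-) for Tnc.
Mstn: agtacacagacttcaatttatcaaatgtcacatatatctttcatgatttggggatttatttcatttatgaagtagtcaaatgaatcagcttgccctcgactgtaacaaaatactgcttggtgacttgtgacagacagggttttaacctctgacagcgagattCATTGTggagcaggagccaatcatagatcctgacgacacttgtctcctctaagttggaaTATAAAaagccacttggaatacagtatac
Postn, outer start: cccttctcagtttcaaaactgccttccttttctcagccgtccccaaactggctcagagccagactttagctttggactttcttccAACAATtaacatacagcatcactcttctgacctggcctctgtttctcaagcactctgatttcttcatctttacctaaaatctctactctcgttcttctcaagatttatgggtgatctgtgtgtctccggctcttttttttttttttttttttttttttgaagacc
Postn, inner start: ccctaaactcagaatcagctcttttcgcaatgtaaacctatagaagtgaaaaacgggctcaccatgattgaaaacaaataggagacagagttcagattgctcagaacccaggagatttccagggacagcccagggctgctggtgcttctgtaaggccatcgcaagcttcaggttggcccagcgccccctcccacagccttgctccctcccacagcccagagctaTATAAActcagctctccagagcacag
Tgfbi: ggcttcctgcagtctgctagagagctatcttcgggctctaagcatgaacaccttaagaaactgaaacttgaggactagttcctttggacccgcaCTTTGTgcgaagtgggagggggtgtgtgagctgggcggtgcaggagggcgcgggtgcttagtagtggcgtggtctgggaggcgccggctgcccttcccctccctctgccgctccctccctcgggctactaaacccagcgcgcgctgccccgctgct
Tnc, outer start: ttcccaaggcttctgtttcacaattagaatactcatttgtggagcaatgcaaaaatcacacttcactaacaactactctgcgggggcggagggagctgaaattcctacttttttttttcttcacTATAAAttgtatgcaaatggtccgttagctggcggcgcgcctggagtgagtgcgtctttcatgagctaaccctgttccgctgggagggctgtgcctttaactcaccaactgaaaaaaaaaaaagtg

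Mstn, Tgfbi and Postn each held 1 SOX-type word, and Scx had no entry. In Mstn it was ACAATG on the opposite strand (CATTGT) at bases -88 to -83 from the start, in Tgfbi it was ACAAAG on the opposite strand (CTTTGT) at bases -156 to -151, and in Postn it was AACAAT at bases -165 to -160 of the outer start, with none upstream of the inner start. The windows of both Tnc starts held 0. Such words are common. Over the 32851 windows of the same length in the table, 9.42% held AACAAT, 10.7% ACAATG and 16.5% ACAAAG, and 29.6% held 1 or more of them. The word TATAAA was found in 12.4% of windows. It stood at bases -29 to -24 of Mstn and -26 to -21 of the inner Postn start, the usual place of a TATA box. Only this exact word was counted, not other forms of a TATA box. In Tnc the word lay farther from the start, at bases -126 to -121 of the outer one and -205 to -200 of the inner one. The inner Tnc window, not printed, also holds the form TATATAAG nearer the start, in the usual place of a TATA box. Tgfbi had no TATAAA, and its window was the richest of those shown in G and C, at 62.4% against a median of 52.4% over all windows. The E-box CANNTG, the kind of site that scleraxis and other basic helix-loop-helix (bHLH) factors bind, occurred 4 times in Mstn and 3 times in the outer Tnc window and was absent from the Postn and Tgfbi windows, while 66.2% of all windows held it. These matches describe letters, not bound sites, and a link between them and the cKO values was not tested.

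Sox9 itself, the targeted gene, measured 36.7 nFPKM in WT against 14.7 nFPKM in cKO, so that 39.9% of the WT value remained. Over the 13793 transcripts that reached 1 nFPKM in WT or in cKO, log2 ratios (cKO to WT) had a median of -0.11. Ratios were taken after adding 1 nFPKM to each value, which understates those of low genes. Ratios are given relative to that median below, as relative log2 ratios, unless stated. The authors' deposited log2 fold changes are given as deposited, with a median of -0.0043 over the same transcripts. Markers of the expected tissue were present at high levels. The 16 cardiomyocyte markers summed to 54304 nFPKM in WT and 54477 in cKO, and the 15 endothelial markers to 1195 and 1420. The pools differed in other respects, with 11 of 11 erythroid genes above the all-transcript median and their sum at 41094 nFPKM in WT and 93231 in cKO.

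Among the 5 genes, Mstn and Scx were several-fold lower in cKO, Postn and Tgfbi were lower by close to 2-fold or less, and Tnc was not lower. The 2-fold rule (a log2 ratio of 1 or more in size, before centring) was met by Mstn and Scx, 2 of 5, both in the lower direction. Over all transcripts 0.979% met it in that direction and 0.595% in the other, 1.57% together, as 135 lower and 82 higher transcripts. After centring the split was 93 lower (0.674%) and 115 higher (0.834%), 1.51% together, and the same 2 genes met the rule. The genes were chosen with this contrast known, so their count is not evidence about the group. The median relative log2 ratio of the 5 was -0.89, against 0 over all transcripts by construction.

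**Figure D1:**
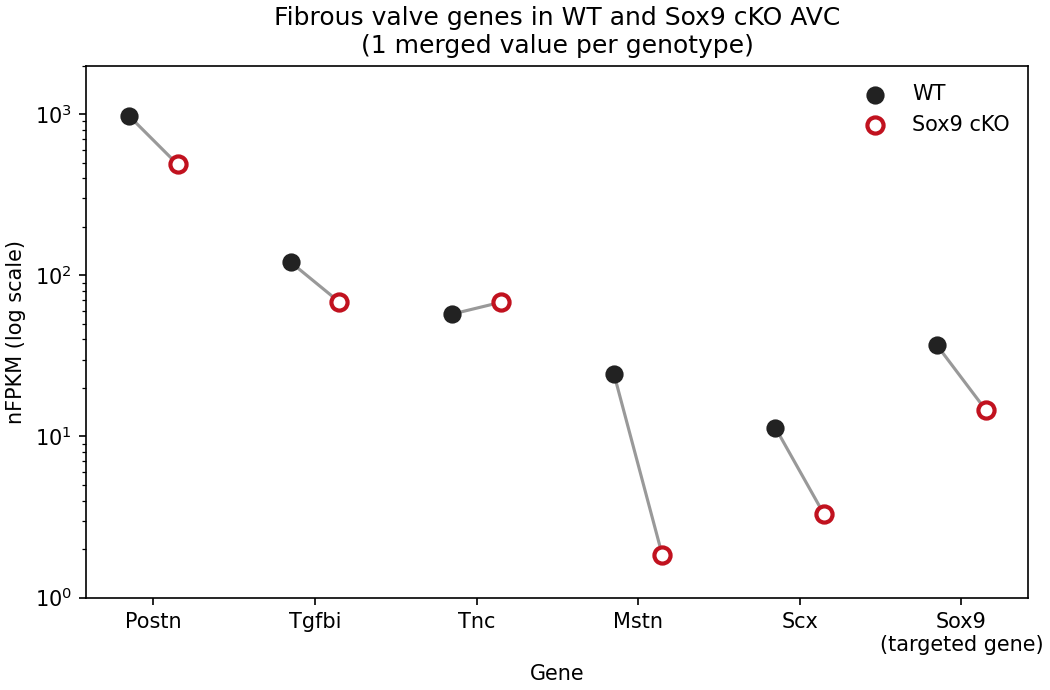
The 5 genes and Sox9 (x axis) with their nFPKM on a log scale (y axis), a filled point for WT and an open point for Sox9 cKO, joined by a line, 1 merged value per genotype. The line falls steeply for Mstn (24.5 to 1.83 nFPKM) and Scx (11.3 to 3.29), less for Postn and Tgfbi, and runs slightly upwards for Tnc.

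Of the regulators, Scx (NM_198885) stood at 11.3 nFPKM in WT and at 3.29 nFPKM in cKO, which left 29.2% of the WT value. Its relative log2 ratio was -1.41, and the authors' deposited log2 fold change was -1.52. Its ratio was the 31st lowest of all transcripts tested. Among the 3926 transcripts whose higher value lay between 10 and 30 nFPKM, the central 90% of relative log2 ratios lay between -0.45 and 0.45. Scx was the least abundant of the 5 genes in WT and went from percentile 34.9 of all transcript levels in WT to percentile 20.2 in cKO. With 5 nFPKM added in place of 1, its log2 ratio before centring was -0.97, just short of the 2-fold rule.

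In the GRCm38 gene order Scx lies inside Bop1, a ribosome biogenesis gene, whose reads could be counted towards it or the reverse. Whether strand was used in counting is not stated in the labels. Bop1 measured 41.2 nFPKM in WT against 35.0 nFPKM in cKO (relative log2 ratio -0.12). The nearest measured genes on either side, Maf1 (-0.39) and Hsf1 (0.09), were likewise nearer the all-transcript median than Scx. The level of Scx went from 0.31 to 0.22 times that of Sox9.

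The transcript of Mstn (NM_010834) stood at 24.5 nFPKM in WT and at 1.83 nFPKM in cKO. This is a 13.4-fold difference and leaves 7.47% of the WT value. The relative log2 ratio was -3.07, and the authors' deposited log2 fold change was -3.28. Only 1 of 13793 transcripts, Btn1a1 (14.9 and 0.58 nFPKM), had a lower ratio. In WT the level of Mstn was close to the middle of all transcripts, at percentile 53.5, and in cKO at percentile 14.4. Its order with Scx turned over, from 2.17 times the Scx level in WT to 0.55 times in cKO. In cKO both values were low (1.83 and 3.29 nFPKM). With 5 nFPKM added in place of 1, the log2 ratio of Mstn before centring was -2.11. The genes on either side, Pms1 (14.7 and 12.4 nFPKM, -0.12) and 1700019D03Rik (1.15 and 0.83 nFPKM, -0.12), stood near the all-transcript median. The level of 1700019D03Rik was close to the filter, where the added 1 nFPKM understates ratios.

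Mstn is best known from skeletal muscle, so markers of that tissue were read in the same values. Of 15 listed markers, 7 matched a row and 5 passed the filter, with a median of 0.02 and with 0 past the 2-fold rule. Myog, the myogenic factor among them, was at 0.26 nFPKM in WT and 0.71 in cKO. Acta1 (255 and 369 nFPKM), Ckm (62.8 and 53.8 nFPKM) and Tnni2 (47.2 and 44.5 nFPKM) made up most of the summed level of 379 nFPKM in WT and 482 in cKO, and Acta1 and Ckm are also transcribed in heart muscle. The higher sum in cKO came from Acta1, while the nFPKM of Ckm and Tnni2 were lower there. Myh8, a myosin heavy chain gene of developing muscle, measured 1.27 nFPKM in WT against 0.56 nFPKM in cKO (-0.43), in the direction of Mstn. Myh3, another such gene, went the other way, at 0.37 nFPKM in WT and 0.72 nFPKM in cKO (0.43), below the filter. The values of both are low. The part of skeletal muscle cells in the value of Mstn was not tested.

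Of the matrix genes, Postn (NM_001198765) was by far the most abundant, at 973 nFPKM in WT and 487 nFPKM in cKO. It ranked 83rd of all transcripts in WT and 188th in cKO. The cKO value was 50.0% of WT, a log2 ratio of -0.997 before centring, so that Postn was narrowly short of the 2-fold rule. The relative log2 ratio was -0.89, and the authors' deposited log2 fold change was -0.89. Of the 388 transcripts with a value of at least 300 nFPKM, the central 90% of relative log2 ratios lay between -0.31 and 0.60. Postn made up 82.0% of the summed nFPKM of the 5 genes in WT and 77.5% in cKO. RefSeq lists several Postn transcripts, and the table gives a value for 1 of them. The nearest measured genes on either side of Postn, Ufm1 (-0.16) and Exosc8 (-0.09), were nearer the all-transcript median.

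Tgfbi (NM_009369), the relative of Postn, stood at 120 nFPKM in WT and at 68.3 nFPKM in cKO, or 56.7% of WT. Its relative log2 ratio was -0.70, and the authors' deposited log2 fold change was -0.70. The middle 90% of the 1328 transcripts between 100 and 300 nFPKM ran from -0.28 to 0.46. The levels of the 2 relatives kept nearly the same proportion, with 8.08 times as much Postn as Tgfbi in WT and 7.13 times in cKO. Next to Tgfbi lies Smad5, at 82.0 and 73.4 nFPKM (-0.05).

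In contrast to these, Tnc (NM_011607) stood at 57.5 nFPKM in WT and at 68.0 nFPKM in cKO, 118% of WT. Its relative log2 ratio was 0.34, and the authors' deposited log2 fold change was 0.35. The relative log2 ratio lies inside the middle 90% of the 4376 transcripts between 30 and 100 nFPKM, which ran from -0.33 to 0.38. Of the nearest measured genes on either side, Pappa (4.69 and 6.71 nFPKM, 0.54) stood higher like Tnc, and Atp6v1g1 (-0.07) near the all-transcript median. Postn was 16.9 times as abundant as Tnc in WT and 7.17 times in cKO, and Tgfbi went from 2.10 times the Tnc level to 1.01 times. The order of levels in WT was Postn, Tgfbi, Tnc, Mstn and Scx. In cKO Tgfbi and Tnc were level and Scx stood above Mstn, both at low values.

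**Figure D2:**
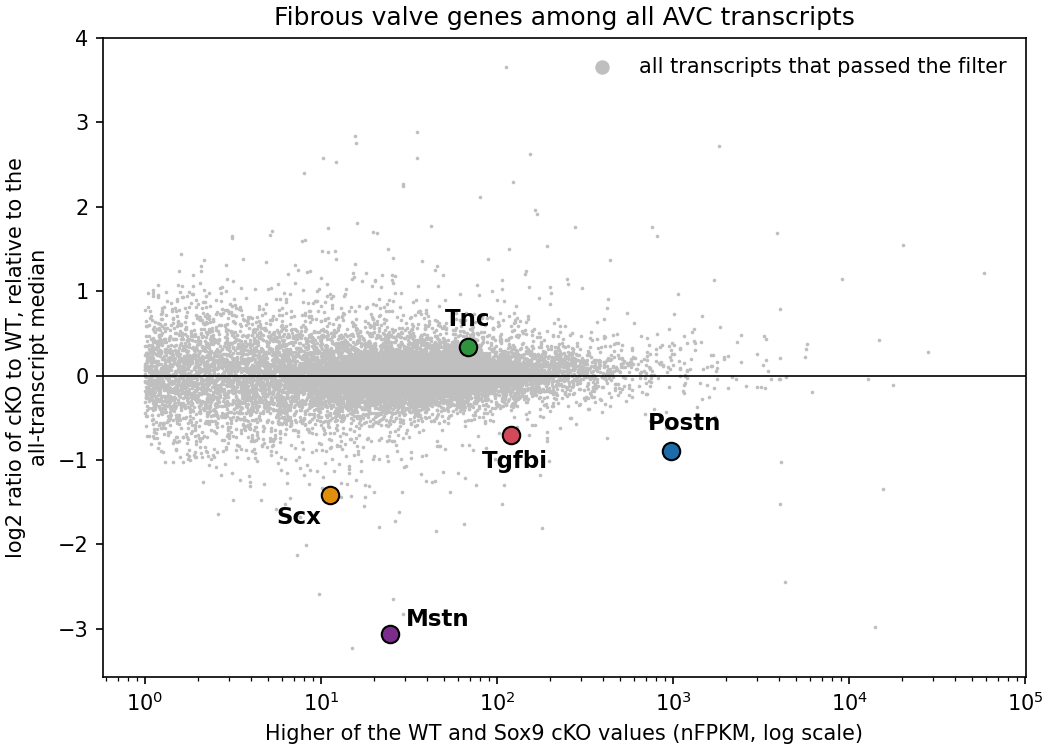
Each grey point is a transcript that passed the filter, placed by the higher of its WT and cKO values in nFPKM (x axis, log scale) and its relative log2 ratio of cKO to WT (y axis), with the 5 genes in colour. Mstn (-3.07) lies near the bottom of the plot. Scx (-1.41), Postn (-0.89) and Tgfbi (-0.70) lie below the middle 90% of transcripts at their own levels, though other transcripts lie lower. Tnc (0.34) lies within the middle 90% at its level.

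The genes whose pair of levels lay nearest to each of the 5 were found by the distance between log2 levels in the 2 genotypes. Nearest to Mstn were Col9a3 (25.5 and 2.94 nFPKM) and Col9a1 (29.2 and 2.94 nFPKM), which encode chains of the cartilage collagen IX, and Btn1a1. Nearest to Scx were Sned1, an extracellular matrix gene (10.2 and 3.14 nFPKM), Sox5, a SOX partner of SOX9 in cartilage (10.2 and 3.55 nFPKM), and Hs3st1, a heparan sulfate sulfotransferase (12.1 and 3.72 nFPKM). Postn stood nearest to Col3a1, a fibrillar collagen (905 and 545 nFPKM), and then to the histone genes Hist1h4d and Hist1h1d. Tgfbi stood nearest to Pdgfra, a receptor of mesenchymal cells (130 and 79.0 nFPKM), and then to Tsn and Ugdh. The neighbours of Tnc were Ablim1, Hmga2 and Rpl35a. Each likeness rests on only 2 values per gene.

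Genes that share the roles of the 5 were read from 10 lists that leave the 5 out, drawn up with earlier results known. The tendon and ligament list had 18 genes that passed the filter. Its median was -0.00069, and 9 genes were on either side of the all-transcript median. The 2-fold rule was met in the lower direction by Lum (lumican, 179 and 47.0 nFPKM) and Aspn (asporin, 7.64 and 2.76 nFPKM), both small proteoglycans that bind collagen, and in the higher direction by Egr1 (19.1 and 79.6 nFPKM), a tendon factor that is also an immediate early gene. The proteoglycans Dcn (0.01), Bgn (0.04) and Fmod (-0.20) stood near the median. So did Col1a1 (-0.13), the main collagen of both tissues, while Thbs4, a thrombospondin of tendon, stood above it (55.5 and 67.9 nFPKM, 0.39).

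The fibrous collagens and the enzymes that process and crosslink them showed 0 of 23 genes past the 2-fold rule and a median of 0.02. The largest were Col3a1 (905 and 545 nFPKM, -0.63), Col6a3 (37.0 and 26.9 nFPKM, -0.34) and Col1a2 (409 and 301 nFPKM, -0.34) in the lower direction and P4ha1, a collagen prolyl hydroxylase (60.1 and 90.7 nFPKM, 0.69), in the higher. Lox (-0.04), which crosslinks collagen, and Serpinh1 (0.12), its chaperone, were near the median. Against Col1a1 the level of Postn went from 1.85 times to 1.09 times, and against Col3a1 from 1.08 times to 0.89 times.

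Other matricellular proteins, the class to which periostin and tenascin C belong, had a median of -0.12 over 18 genes. Spp1 (osteopontin, 23.9 and 10.5 nFPKM, -1.01) met the 2-fold rule, and Fbln5, Fbln2 and Nov stood at -0.53, -0.50 and -0.45. On the other side were Cyr61 (0.59) and Ctgf (0.55), and the tenascin Tnxb (3.91 and 4.56 nFPKM, 0.29) stood in nearly the same proportion to Tnc, which was 14.7 times as abundant in WT and 14.9 times in cKO. The listed receptors of periostin and tenascin C, mostly integrins, had 0 of 12 past the rule and a median of 0.01. Itga8 (-0.39) and Itga4 (-0.29) were lowest and Sdc4 (0.36) was highest.

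The pathway of myostatin showed small differences beside that of the ligand. Of 19 genes 0 met the rule, with a median of 0.05. Gdf11, the closest relative of Mstn, stood at 17.2 nFPKM in WT against 11.95 nFPKM in cKO (-0.38), so that Mstn went from 1.43 times to 0.15 times the Gdf11 level. The activin subunit gene Inhba (21.9 and 11.8 nFPKM, -0.73), the type I receptor gene Acvr1c (-0.74) and Ltbp3, which binds latent ligand (-0.84), were the lowest. The receptors Acvr2b (0.20), Acvr2a (-0.03) and Acvr1b (0.10), the antagonist Fst (0.22) and the mediators Smad2 (0.06), Smad3 (0.17) and Smad4 (0.10) were near the median. Ligands, receptors and response genes of TGF-beta had 0 of 18 genes past the rule in the lower direction and a median of 0.02. Tgfb2 (-0.02) and Tgfbr2 (0.15) were close to it, while Pmepa1, a response gene, stood at -0.75 and Tgfbr3 at 0.68.

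The bHLH relatives and partners of scleraxis had a median of -0.50, with 9 of 10 genes below the all-transcript median. Twist1 (75.7 and 27.9 nFPKM, -1.30) and Tcf15, the closest relative of Scx (5.54 and 2.25 nFPKM, -0.90), met the 2-fold rule, and Tcf15 no longer did after centring. The Id genes, whose products hold bHLH factors off DNA, stood at -0.76 for Id4, -0.58 for Id2, -0.51 for Id1 and -0.50 for Id3. The dimer partners Tcf3 (-0.24), Tcf12 (-0.22) and Tcf4 (0.06) were nearer the median. Homeobox genes of the TALE class, to which mohawk belongs, had a median of 0.01 over 17 genes and 1 past the rule, Irx6 (3.26 and 8.28 nFPKM, 1.23). FGF signalling, which switches on Scx in tendon progenitors, had a median of 0.27 over 15 genes, with the response genes Spry4 (0.85), Etv4 (0.59) and Spry1 (0.57) highest and the receptor Fgfr2 (44.1 and 16.7 nFPKM, -1.24) alone past the rule. Of the cartilage genes, 5 of 11 met the rule, all lower in cKO, and the median was -0.32. The 5 were Col9a1, Col9a3, Matn4, Col9a2 and Sox5. Col2a1 (63.2 and 54.9 nFPKM, -0.09) and Hapln1 (149 and 145 nFPKM, 0.07) were near the all-transcript median. Acan was low in both genotypes (0.83 and 1.23 nFPKM, 0.39). With a minimum of 3 nFPKM in place of 1 the cartilage median was -1.20.

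**Figure D3:**
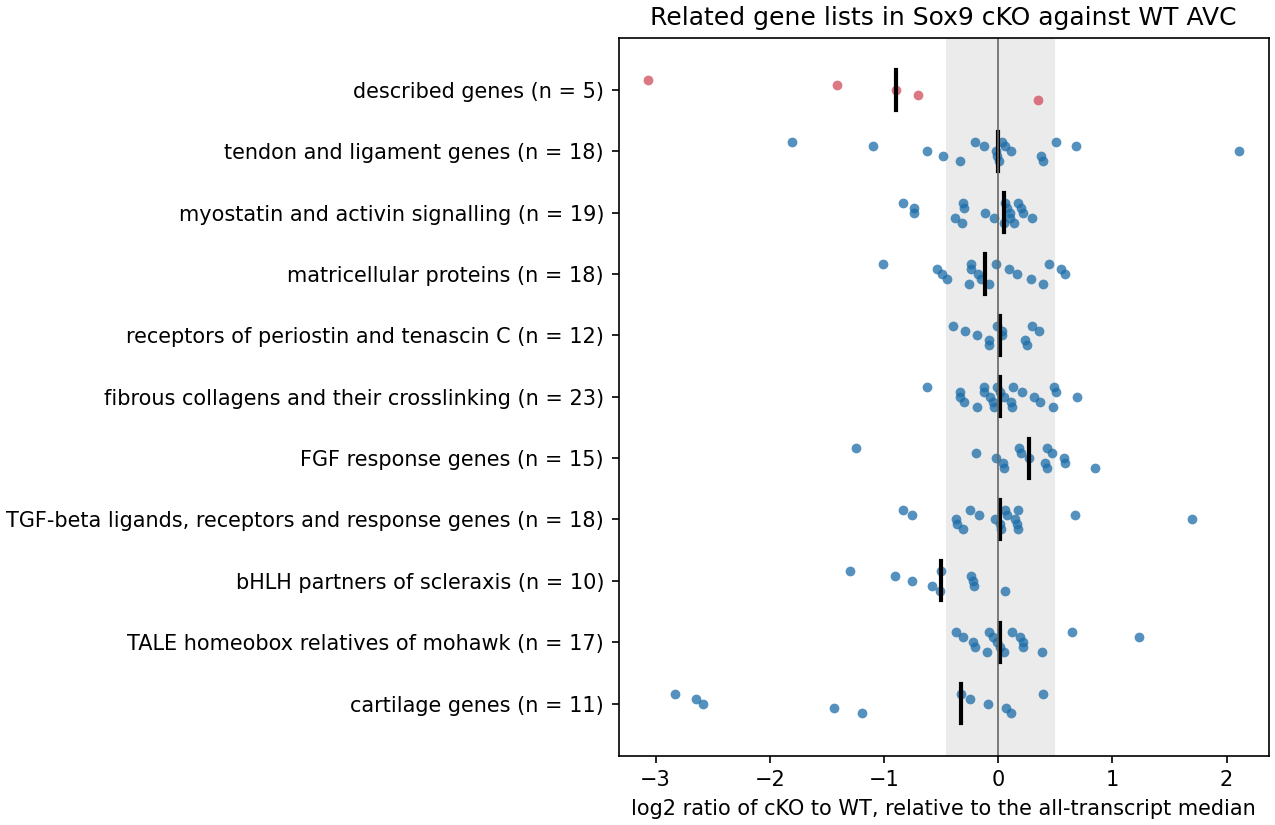
Relative log2 ratio of cKO to WT (x axis) for the 5 described genes (red) and for the genes of 10 related lists that passed the filter (blue), 1 point a gene and a black bar at the median. The grey band is the middle 90% of single transcripts (-0.45 to 0.49), and most points of most lists lie within it, while Mstn, Scx, Postn and Tgfbi lie to its left.

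Marker lists of the cell types in the pools stood at different places. Of 16 valve mesenchyme markers, 14 were below the all-transcript median, their median was -0.57 and their summed level was 3759 nFPKM in WT and 3354 in cKO. Much of that sum was Vim, which was not lower in cKO (1840 and 1953 nFPKM). Papss2 (64.7 and 7.20 nFPKM, -2.90), Twist1 (-1.30), Sox9 (-1.16) and Prrx1 (-0.99) were lowest, while Vim (0.19), Vcan (-0.03) and Cdh11 (-0.03) were near or above the median. The list thus holds the targeted gene. Endothelial markers (14 of 15 above, median 0.30) and epicardial markers (8 of 10 above, median 0.64, summed level 329 and 416 nFPKM) stood on the other side, and cardiomyocyte markers on neither (8 of 16 above, median 0.02). The 13 macrophage markers had a median of -0.14 and the 8 neural crest, glial and neuronal markers of -0.51. None of the listed markers with a row was at 0. The part of cell makeup in the values of Scx, Mstn, Postn and Tgfbi was not tested, and in these bulk values fewer mesenchymal cells and less RNA per cell cannot be told apart.

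**Figure D4:**
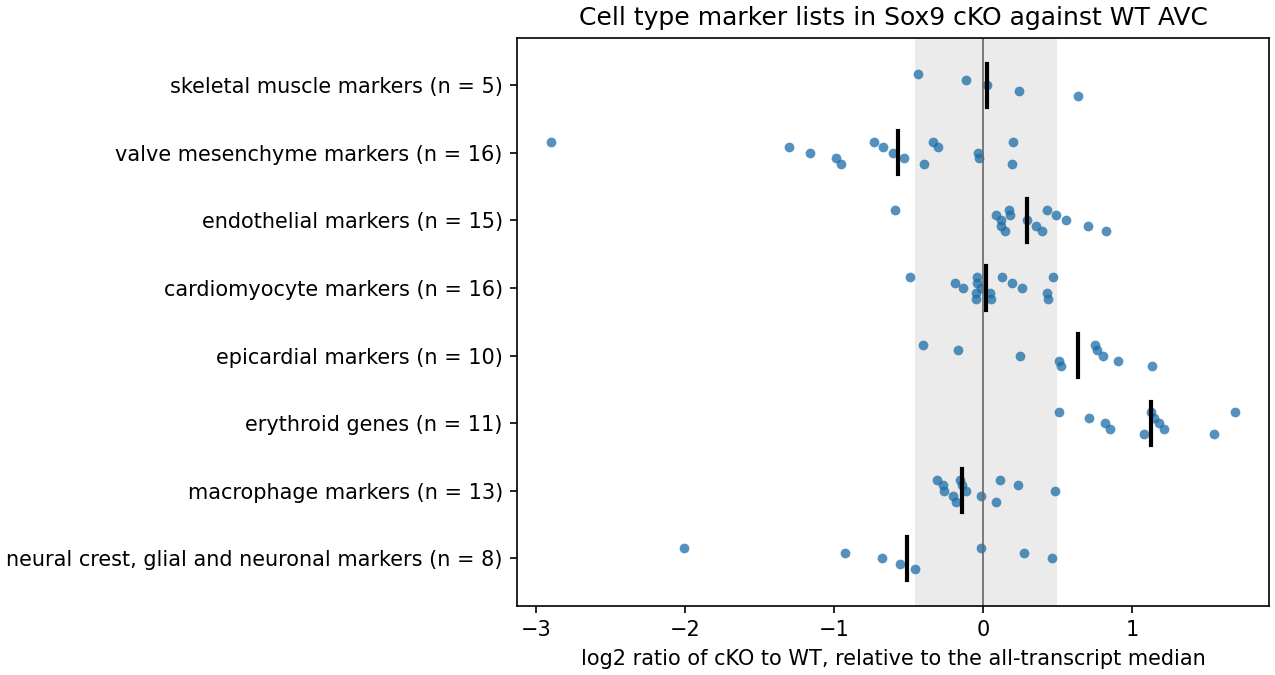
Relative log2 ratio of cKO to WT (x axis) for the markers of 8 cell types that passed the filter, 1 point a gene and a black bar at the median, with the middle 90% of all transcripts in grey. Valve mesenchyme markers centre on -0.57, endothelial markers on 0.30, epicardial markers on 0.64 and erythroid genes on 1.13.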

How the data were processed

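Expression values were those the authors deposited as nFPKM, a further normalized FPKM, 1 per transcript and genotype, merged over 2 libraries, per the file headers and labels. Per the submitters' processing notes, the tools included TopHat2, Cufflinks and edgeR with the build mm9, with no version or role given. How nFPKM differs from FPKM is not stated in the labels. The authors also deposited a log2 fold change (cKO over WT) without a p-value. Summed nFPKM came to 961487 for WT and to 960481 for cKO, and the depth is unknown. With 1 value per genotype no test could be made.

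The log2 ratio was computed with a pseudocount of 1 for the 13793 transcripts that reached 1 nFPKM in WT or in cKO, which removed 904. Differences were described by a 2-fold rule. The genes, lists and alternatives were chosen with earlier results of these data known. Named genes were the members, up to 4 genes of each list by absolute ratio and the 3 nearest protein-coding genes of each member, and others named from the lists were chosen after their values were seen. One result that the rule names is not reported here. List names were matched by symbol or older symbol. Promoter windows were the upstream 250 bases of RefSeq entries (GRCm38.p6). Scx and Mkx had no window here. SOX9 peaks were not placed at these genes, since their build is mm9 and an mm9 annotation is not used here. Python 3.11.15, numpy 2.4.6, pandas 2.3.3 and matplotlib 3.10.9 were used. Only the ratio, the 2-fold rule and the nearest-gene search were checked on simulated data, without noise.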

Additional observations from a re-analysis of the deposited data

How the results depend on the processing

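The 7 alternatives were a pseudocount of 0.1 or 5, no filter or a minimum of 3 nFPKM, the rule on centred ratios, the authors' deposited log2 fold change, and values without globin genes at equal totals. The 5 genes kept their direction under all of them, with log2 ratios from -3.67 to -2.11 for Mstn, -1.75 to -0.97 for Scx, -0.999 to -0.889 for Postn, -0.82 to -0.70 for Tgfbi and 0.22 to 0.35 for Tnc. Only the pseudocount of 5 changed a call among them, with Scx at -0.97 and the number of genes at least 2-fold lower at 1. It also left 1 lower tendon gene, 0 lower matricellular genes, 1 lower bHLH gene, 4 lower cartilage genes and 0 higher TALE genes. The bHLH number was also 1 on centred ratios and without globin genes, and a pseudocount of 0.1 gave 1 lower myostatin pathway gene. The median of the cartilage list was -1.20 with a minimum of 3 nFPKM and -0.17 without a filter, and that of the tendon list -0.13 with the minimum. Medians of lists were taken as moved from a difference of 0.1. No paired analysis was possible because each genotype has 1 merged value, and for the same reason no replicate could be left out.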
